A study of Mus musculus with 20 samples.

Results

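The genes described here are chromatin regulators of the mouse kidney, taken as the rows of the deposited count table whose symbols begin with Kmt, Kdm, Chd, Setd, Arid or Brd followed by a digit, or with Smarc. The rule found 76 of the 25638 genes in the table, made up of 8 Kmt, 8 Setd, 18 Kdm, 11 Chd, 13 Smarc, 10 Arid and 8 Brd rows. Of these, 74 passed the filter on low counts and were tested. Arid3c and Kdm4d did not, and had totals of 26 and 46 reads over the 20 libraries. Brd3os and Chd3os match the rule by their symbols but are separate genes named after their neighbours Brd3 and Chd3.

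Polyadenylated mRNA was sequenced from whole kidneys of male wild-type C57BL/6J mice aged 6 to 8 weeks and weighing 18 to 22 g. There were 4 groups of 5 animals. Control mice received oral PBS and an injection of saline, and cisplatin mice received oral PBS and 10 mg/kg cisplatin, a platinum drug that injures the renal tubule. The other groups received 15 or 30 mg/kg 7-HCG, which is 7-hydroxycoumarin-β-D-glucuronide, by mouth in addition to the same dose of cisplatin. PBS or 7-HCG was given daily for 5 days, cisplatin on day 3, and kidneys were taken 72 h after cisplatin, so no group received 7-HCG without cisplatin. Replicate numbers below are those of the sample titles, and lists of values follow the order 1, 2, 5, 7 and 8 for control, 2, 3, 6, 9 and 10 for cisplatin, 1, 2, 3, 5 and 7 for 15 mg/kg and 1, 5, 6, 7 and 8 for 30 mg/kg.

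Chromatin regulators set how tightly DNA is packed around histones and so which genes can be read. Writers of the KMT and SETD families attach methyl groups to lysines of histones or other proteins, and erasers of the KDM family remove them. Remodelers of the CHD and SMARC families use ATP to move or evict nucleosomes, ARID proteins are DNA-binding subunits of such complexes or transcription factors, and BRD proteins read acetylated lysines through bromodomains. In the kidney these proteins are studied for their part in how tubule cells switch gene programmes after injury. Many of them are very large proteins with long mRNAs.

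Kmt2a and Kmt2d had mRNAs lower in both 7-HCG groups than in either other group, and Smarca4 was called different in no comparison. The promoters of these 3 members are shown as examples, chosen after their values were seen. Each is the 250 bases before the start of the RefSeq gene in GRCm38.p6, written 5′ to 3′ on the strand of the gene, with GC boxes (GGGCGG, or CCGCCC on the other strand) in capitals. They lie at chr9:44881290-44881539 on the minus strand, chr15:98871206-98871455 on the minus strand and chr9:21615919-21616168 on the plus strand.
Kmt2a: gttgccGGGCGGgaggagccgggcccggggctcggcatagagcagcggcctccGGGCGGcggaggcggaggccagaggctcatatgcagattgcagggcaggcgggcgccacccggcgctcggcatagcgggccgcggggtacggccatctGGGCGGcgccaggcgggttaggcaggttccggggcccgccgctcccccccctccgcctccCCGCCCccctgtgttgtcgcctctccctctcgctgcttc
Kmt2d: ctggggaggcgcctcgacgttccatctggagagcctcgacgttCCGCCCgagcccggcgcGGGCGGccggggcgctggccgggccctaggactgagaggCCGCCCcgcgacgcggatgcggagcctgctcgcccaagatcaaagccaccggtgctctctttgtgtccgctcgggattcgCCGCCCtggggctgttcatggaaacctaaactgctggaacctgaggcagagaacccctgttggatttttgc
Smarca4: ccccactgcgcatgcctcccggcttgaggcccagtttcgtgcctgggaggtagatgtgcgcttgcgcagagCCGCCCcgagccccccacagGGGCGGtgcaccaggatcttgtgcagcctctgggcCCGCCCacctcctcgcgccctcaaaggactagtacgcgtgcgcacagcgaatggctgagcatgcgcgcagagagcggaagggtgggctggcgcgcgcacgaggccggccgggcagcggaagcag
The windows of Kmt2a and Kmt2d held 4 GC boxes each and that of Smarca4 held 3. These 3 picked windows cannot show whether the motif goes with the changes. RefSeq promoters could be matched for 57 of the 76 members. A GC box was present in 40 of these 57 windows (70.2%), against 56.1% of 11267 windows of tested genes and 32.7% of 27025 windows of all genes. The TATA box letters TATAAA were found on either strand in 3 of the 57 member windows (5.26%), against 6.91% of windows of tested genes. The median number of CG dinucleotides was 20 per member window and 15 per window of a tested gene. A motif match describes the letters of the window, and no use of these sequences was measured.

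Libraries held 10714532 to 49602115 counts. Cisplatin replicates 9 and 10 stood apart, with 77.7% and 70.6% of their counts on the 13 mitochondrially encoded mRNAs, against 16.6 to 27.3% in the other cisplatin libraries, 24.6 to 45.5% in control and 3.04 to 8.01% in the 7-HCG libraries. Results are therefore also given without these 2 libraries. CPM are counts divided by library sizes scaled with TMM, which corrects for such dominant mRNAs. Kidney identity was clear from 14 proximal tubule markers, all of them detected, whose summed level ran from 18633 to 59360 CPM in control and from 12524 to 27615 CPM in cisplatin. With 7-HCG it ran from 38886 to 64293 CPM (15 mg/kg) and from 28120 to 49976 CPM (30 mg/kg). Against cisplatin, 10 of these markers were called higher at 15 mg/kg and 9 at 30 mg/kg. The 9 fibroblast and mural markers summed to 668 to 1544 CPM in control, 177 to 1709 in cisplatin and 105.6 to 419 in the 7-HCG libraries. All 9 were called lower than control at both doses, and 4 in cisplatin. The 8 endothelial markers summed to 435 to 1293 CPM in control, 171 to 662 in cisplatin and 44.4 to 384 with 7-HCG, and 7 were lower than control at both doses and 4 in cisplatin, with medians of -1.95, -1.87 and -1.47 on the log2 scale. Of the 7 tested T and NK cell markers, 6 and 7 were lower than control at 15 and 30 mg/kg and 5 in cisplatin, and of 6 tested red blood cell markers 5 were lower in each of these comparisons. The 10 tubular injury markers summed to 799 to 1890 CPM in control, 3034 to 8947 in cisplatin and 1662 to 17931 with 7-HCG, and 8 were higher than control at both doses and 6 in cisplatin. The 9 adipose markers summed to 561 and 2545 CPM in control replicates 2 and 5 and to at most 288 CPM in every other library, so these 2 were left out as a further check. The 6 neutrophil markers, of which 1 was at 0 in every library, summed to at most 4.15 CPM outside the cisplatin group and to 3.30 to 50.7 CPM within it. In whole tissue, fewer cells of a type and less RNA per cell cannot be told apart, and the part of cell makeup in the results below was not tested.

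Levels of the members in control kidneys, compared per kilobase of transcript, spanned a wide range. Setd3, an actin histidine methyltransferase, was highest at 34.8 ± 4.09 CPM per kb (SD, n = 5). Brd2, a reader of acetylated histones, followed at 31.9 ± 12.4 CPM per kb, and Chd4, the ATPase of the NuRD corepressor, at 29.8 ± 2.78 CPM per kb. These 3 levels differed by less than the spread of Brd2 between animals. At the other end, Chd5 and Smarca1 stood at 0.0937 and 0.292 CPM per kb, the lowest levels among the tested members with a length.

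A large part of the chromatin regulators was lower with 7-HCG and cisplatin than with cisplatin alone. At 15 mg/kg, 42 of the 74 tested members (56.8%) were lower than in cisplatin and none was higher, by edgeR's quasi-likelihood test at an adjusted p below 0.05. At an unadjusted p below 0.05 the same test gave 50 lower and 1 higher, and DESeq2 called 46 lower and 0 higher. Over all 14858 tested genes, 18.6% were lower and 18.9% higher. At 30 mg/kg, 27 members (36.5%) were lower and none was higher, against 13.2% of all tested genes lower and 14.7% higher. Here the unadjusted p gave 36 lower and 3 higher, and DESeq2 called 37 lower and 0 higher. The members' median log2 fold change was -0.73 for the lower and -0.45 for the higher dose, while that of all tested genes was -0.05 and 0.00. Without cisplatin replicates 9 and 10, 32 members were lower and 1 higher at 15 mg/kg, and 20 were lower and none higher at 30 mg/kg. Scaling by library totals alone moved the median of all tested genes by 0.29 at 15 mg/kg and 0.38 at 30 mg/kg, and 10 and 1 members were then called lower. Relative to the median of all genes, the members' median was -0.62 and -0.42 with that scaling and -0.68 and -0.45 with TMM. Shares of all tested genes called in these refits are not given, so whether the calls of all genes changed alike cannot be read from the counts.

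Against control, 39 members (52.7%) were lower and 3 higher at 15 mg/kg, with 22.2% of all tested genes lower and 23.0% higher. At 30 mg/kg, 23 members (31.1%) were lower and 1 was higher, with 15.6% and 18.6% of all tested genes. The number of members called at 30 mg/kg depended on which libraries were used. It was 15 without replicate 5 at 30 mg/kg and 10 without control replicates 2 and 5. It was 37 when cisplatin replicates 9 and 10 were left out of the shared fit. Shares of all tested genes are not given for these fits. Medians were -0.60 and -0.39 on the log2 scale for the members and -0.06 and 0.01 for all tested genes. These comparisons share libraries with each other, so their values are set side by side and not counted as separate evidence. A total of 16 members were lower in all 4 comparisons of a dose with cisplatin or control. They were the Kmt and Setd genes Kmt2a, Kmt2c, Kmt2d, Kmt2e, Kmt5b and Setd5, the eraser Kdm3a, and the remodelers Chd2, Chd5, Chd6 and Chd8. The others were the ARID genes Arid1a, Arid2 and Arid4a, and the bromodomain genes Brd8 and Brd9. The share of all tested genes lower in all 4 was not counted, so the 16 are given as a description. Called in no comparison were 21 members, among them 7 Smarc genes, and this share of all tested genes was not counted either.

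**Figure D1:**
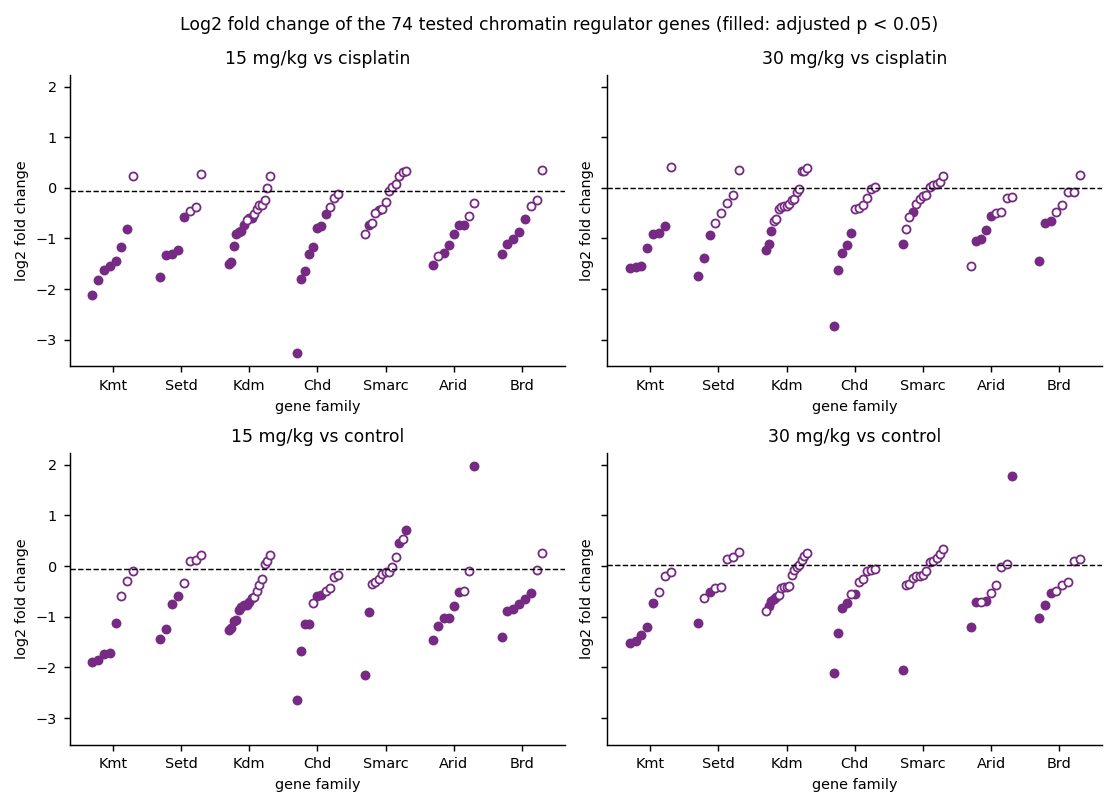
Each point is 1 of the 74 tested chromatin regulator genes, placed by gene family (x axis) and log2 fold change (y axis) in 4 comparisons, filled where edgeR's adjusted p was below 0.05; the dashed line is the median of all tested genes. Most Kmt genes lie far below the line in all 4 panels, and most Smarc genes lie near it.

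The clearest pattern was in the 5 Kmt2 genes, the mammalian relatives of fly trithorax. Kmt2a, Kmt2b, Kmt2c and Kmt2d encode large methyltransferases of histone H3 that mark active promoters and enhancers, and Kmt2e encodes a relative whose SET domain is thought to be inactive. Each of the 5 was lower than cisplatin under either dose, and 4 of them, all but Kmt2b, were lower at both doses than in control. Their median log2 fold change was -1.63 at 15 mg/kg and -1.54 at 30 mg/kg against cisplatin, and -1.74 and -1.37 against control. Without cisplatin replicates 9 and 10 all 5 were still called lower than cisplatin at both doses, with medians of -1.58 and -1.09.

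Kmt2a had 56.6, 38.6, 47.5, 38.1 and 40.4 CPM in control and 56.1, 26.2, 51.1, 53.3 and 52.7 CPM in cisplatin. In the 7-HCG groups it had 11.4, 21.1, 13.0, 7.69 and 14.7 CPM at 15 mg/kg and 5.83, 15.9, 20.1, 19.5 and 18.5 CPM at 30 mg/kg. Every 7-HCG library lay below every control and cisplatin library, and among the cisplatin libraries replicate 3 was low. Kmt2a, at 16461 bp one of the longest transcripts of the group, was 3.53-fold lower at 15 mg/kg than in cisplatin, a log2 fold change of -1.82 ± 0.30 (SE, edgeR adjusted p = 0.000266). The log2 fold change at 30 mg/kg was -1.58 ± 0.30 (edgeR adjusted p = 0.0012).

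Kmt2d, the enhancer methyltransferase with the longest transcript of all members (19823 bp), had 81.5, 50.7, 66.0, 54.6 and 66.5 CPM in control and 61.2, 35.3, 71.3, 33.9 and 54.7 CPM in cisplatin. After 7-HCG it had 16.0, 20.2, 18.9, 14.1 and 18.7 CPM at 15 mg/kg and 13.5, 20.2, 26.7, 29.6 and 22.2 CPM at 30 mg/kg. The 7-HCG libraries again lay below all control and cisplatin libraries, without overlap. Its mean fell from 63.9 ± 12.1 CPM in control to 17.6 ± 2.47 CPM at 15 mg/kg (SD, n = 5), which was 3.63-fold lower (log2 fold change -1.86 ± 0.23, edgeR adjusted p = 2.37e-05). The mean at 30 mg/kg was 22.4 ± 6.22 CPM, with a log2 fold change against control of -1.51 ± 0.23 (edgeR adjusted p = 0.00018).

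Kmt2c, the close relative of Kmt2d, had 37.6, 34.3, 36.1, 28.2 and 31.8 CPM in control and 31.4, 18.6, 32.0, 20.9 and 18.8 CPM in cisplatin. With 7-HCG it had 13.2, 7.54, 10.0, 3.95 and 10.1 CPM at 15 mg/kg and 6.39, 10.7, 14.5, 17.1 and 16.6 CPM at 30 mg/kg. No 7-HCG library reached the lowest cisplatin library, and replicate 5 at 15 mg/kg was the lowest of all. The log2 fold change against control was -1.90 ± 0.29 at 15 mg/kg and -1.37 ± 0.28 at 30 mg/kg (edgeR adjusted p = 9.18e-05 and 0.00154).

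Kmt2e had 32.3, 26.0, 29.9, 17.8 and 29.0 CPM in control and 24.7, 15.5, 28.1, 34.7 and 71.5 CPM in cisplatin. Its values after 7-HCG were 10.8, 8.27, 7.87, 3.98 and 9.37 CPM at 15 mg/kg and 7.32, 9.59, 13.0, 16.5 and 12.2 CPM at 30 mg/kg. The 15 mg/kg libraries lay below all cisplatin libraries, while the highest 30 mg/kg library passed the lowest cisplatin library. The log2 fold change against cisplatin was -2.11 ± 0.34 at 15 mg/kg (edgeR adjusted p = 0.000233) and -1.47 without cisplatin replicates 9 and 10. The row of Kmt2e overlaps that of Srpk2 on the opposite strand, and as the strand setting of the counting is not given, reads from the overlap cannot be told apart.

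**Figure D2:**
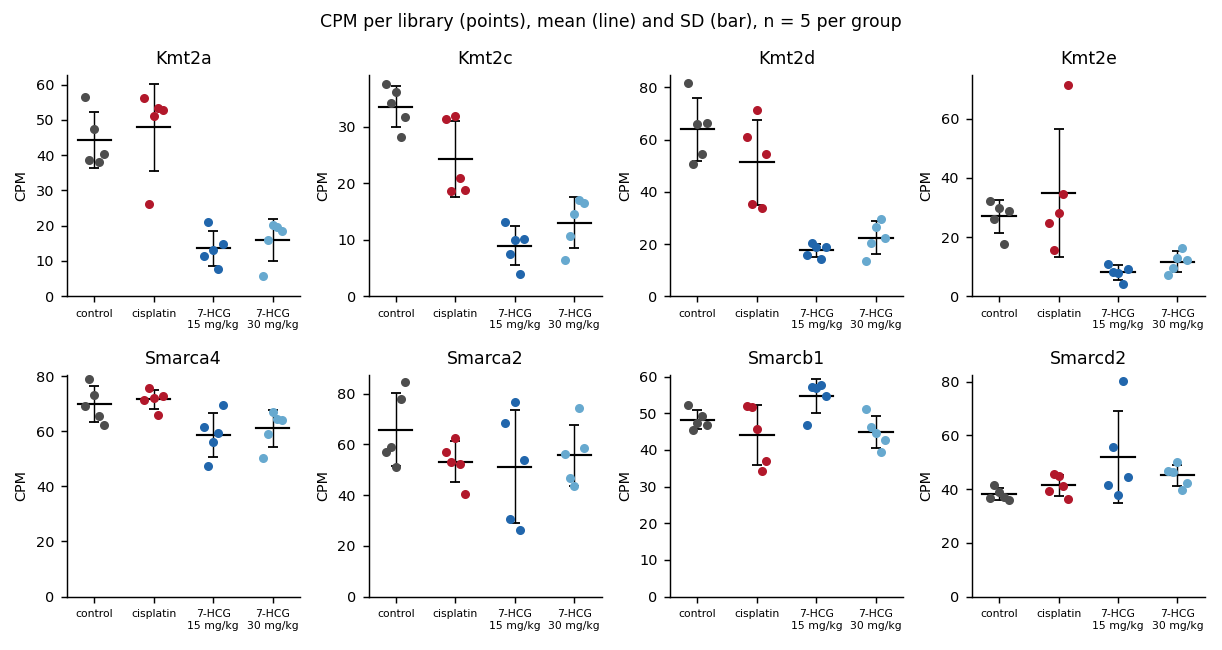
CPM (y axes, from 0) of 4 Kmt2 genes and 4 Smarc genes in each library by group, with the group mean as a line and the SD as a bar (n = 5). The 7-HCG libraries of Kmt2a, Kmt2c and Kmt2d lie below all control and cisplatin libraries, whereas those of Smarca4, Smarca2, Smarcb1 and Smarcd2 overlap them.

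Among the other Kmt and Setd genes, Setd5, a SET-domain protein tied to histone deacetylase complexes, was lower in all 4 comparisons. Its mean was 31.4 ± 6.29 CPM in control, 27.5 ± 6.55 in cisplatin, and 11.6 ± 3.06 and 14.4 ± 2.48 with 15 and 30 mg/kg 7-HCG (SD, n = 5). Its highest 7-HCG library, at 17.3 CPM, lay below its lowest cisplatin library at 18.5 CPM. Kmt5b, which methylates histone H4 and has a shorter transcript of 3290 bp, had log2 fold changes of -1.16 ± 0.26 and -0.76 ± 0.26 against cisplatin at 15 and 30 mg/kg (edgeR adjusted p = 0.00208 and 0.0318). Setd2, the methyltransferase that marks transcribed gene bodies, was called in 1 comparison, 15 mg/kg against control, where its log2 fold change was -0.75 ± 0.22 (edgeR adjusted p = 0.0087). Setd3 and Kmt5a, the enzyme for the first methyl group of histone H4, were called in no comparison.

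Of the 17 tested erasers, 9 were lower at 15 mg/kg than in cisplatin (52.9%, against 18.6% of all tested genes). With 30 mg/kg it was 3 (17.6%), a share near the 13.2% of all tested genes. Kdm6b, the demethylase that removes a repressive Polycomb mark and is induced in inflammation, had 36.8, 31.3, 31.4, 37.0 and 38.8 CPM in control and 53.7, 44.2, 50.2, 54.8 and 109 CPM in cisplatin. Under 7-HCG it had 18.8, 23.3, 19.6, 21.7 and 29.9 CPM at 15 mg/kg and 18.4, 25.3, 31.3, 29.8 and 27.5 CPM at 30 mg/kg. All 10 of these libraries lay below all cisplatin libraries, and those at 15 mg/kg also lay below all control libraries. The log2 fold change against cisplatin was -1.46 ± 0.22 at 15 mg/kg and -1.23 ± 0.22 at 30 mg/kg (edgeR adjusted p = 0.000167 and 0.000919). Kdm3a, a demethylase of another repressive mark that is known to respond to hypoxia, was lower in all 4 comparisons, with log2 fold changes of -1.14 ± 0.22 and -0.86 ± 0.22 against cisplatin (edgeR adjusted p = 0.000691 and 0.00693). Kdm5c, an X-linked demethylase of the active promoter mark with a transcript of 6449 bp, had log2 fold changes of 0.24 and 0.33 against cisplatin and was not called. It has a Y-linked relative of similar sequence, Kdm5d, with which it may share reads.

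Of the 11 tested Chd rows, which include Chd3os, 8 were lower at 15 mg/kg than in cisplatin (72.7%, against 18.6% of all tested genes). With 30 mg/kg it was 5 (45.5%, against 13.2%). Chd6 had 56.4, 37.9, 39.1, 38.0 and 44.9 CPM in control and 52.6, 28.8, 51.9, 39.1 and 38.4 CPM in cisplatin. With 7-HCG it had 14.7, 16.2, 16.4, 6.33 and 14.3 CPM at 15 mg/kg and 12.4, 13.9, 17.2, 23.4 and 19.7 CPM at 30 mg/kg. The 7-HCG libraries lay below all control and cisplatin libraries, and replicate 5 at 15 mg/kg was far below the others of its group. Chd6 had log2 fold changes against cisplatin of -1.63 ± 0.24 and -1.28 ± 0.24 (edgeR adjusted p = 0.000167 and 0.00123). Chd8, a remodeler linked to Wnt signalling, averaged 74.6 ± 19.2 CPM in cisplatin and 33.0 ± 4.84 and 34.0 ± 5.82 CPM under the lower and the higher dose, against 50.0 ± 10.0 in control (SD, n = 5). Chd5 had the largest fall of any tested member in this comparison, a log2 fold change of -3.26 ± 0.64 at 15 mg/kg against cisplatin (edgeR adjusted p = 0.000868), but it rested on 2 to 45 reads per library and means of 1.42 and 0.14 CPM. Chd4 differed little, at 251 ± 31.2 CPM in cisplatin and 176 ± 27.6 at 15 mg/kg (log2 fold change -0.51 ± 0.18, edgeR adjusted p = 0.0285), and it was not called at 30 mg/kg.

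Few Smarc genes were called, and the difference between families was not tested. Of 13 tested, 2 were lower than cisplatin at each dose (15.4%), a share near the 18.6% and 13.2% of all tested genes. Their median log2 fold change was -0.29 at 15 mg/kg and -0.16 at 30 mg/kg. Smarca4, the ATPase of the SWI/SNF (BAF) remodeling complexes also called BRG1, had 69.3, 78.9, 73.3, 65.5 and 62.1 CPM in control and 71.4, 75.7, 72.1, 65.8 and 72.9 CPM in cisplatin. After 7-HCG it had 61.7, 47.4, 55.9, 59.2 and 69.5 CPM at 15 mg/kg and 50.3, 59.2, 67.1, 64.6 and 64.2 CPM at 30 mg/kg. The 7-HCG libraries overlapped those of both other groups, with log2 fold changes of -0.29 ± 0.14 and -0.23 ± 0.14 against cisplatin (edgeR adjusted p = 0.107 and 0.218). Its transcript, at 6354 bp, is longer than most. The alternative ATPase Smarca2 had means of 53.2 ± 8.16 CPM in cisplatin and 51.2 ± 22.3 at 15 mg/kg (SD, n = 5), and the core subunit Smarcb1, with the shortest transcript of the tested members (1660 bp), had 44.2 ± 8.22 and 54.7 ± 4.58 CPM. Neither was called in any comparison. Higher values against control at 15 mg/kg were called for Smarcal1, a helicase that protects stalled replication forks, and for the BAF subunit Smarcd2, with log2 fold changes of 0.71 ± 0.23 and 0.45 ± 0.17 (edgeR adjusted p = 0.016 and 0.0386). Smarca1, the ISWI ATPase SNF2L, was lower than control at both doses (log2 fold changes -2.15 ± 0.65 and -2.06 ± 0.65, edgeR adjusted p = 0.0112 and 0.0192) at means of 1.40 CPM in control and 0.31 and 0.34 CPM with 7-HCG.

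The 14 SWI/SNF subunit genes among the members take in Arid1a, Arid1b, Arid2, Brd7 and Brd9 beside the Smarc subunits. At each dose 5 of them were lower than cisplatin (35.7%), against 18.6% (15 mg/kg) and 13.2% (30 mg/kg) of all tested genes. Arid1a, the DNA-binding subunit of the canonical BAF complex, had 56.7, 47.3, 55.2, 35.3 and 40.8 CPM in control and 50.0, 33.2, 49.4, 41.9 and 40.8 CPM in cisplatin. At the doses of 7-HCG it had 25.5, 22.2, 21.4, 20.6 and 25.3 CPM at 15 mg/kg and 23.6, 27.0, 33.0, 35.1 and 27.6 CPM at 30 mg/kg. Only the 15 mg/kg libraries lay wholly below cisplatin, where replicate 3 was the lowest at 33.2 CPM. Its log2 fold change against cisplatin was -0.90 ± 0.17 at 15 mg/kg and -0.56 ± 0.17 at 30 mg/kg (edgeR adjusted p = 0.000559 and 0.0176). Arid2, the matching subunit of the PBAF complex, had log2 fold changes of -1.14 ± 0.19 and -0.83 ± 0.19 (edgeR adjusted p = 0.000315 and 0.00413).

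Brd9, the bromodomain subunit of the noncanonical BAF complex, stood out among the readers because its transcript is short (2407 bp). It had 39.1, 20.9, 23.3, 20.2 and 20.4 CPM in control and 34.8, 19.1, 26.4, 36.8 and 48.7 CPM in cisplatin. With 7-HCG it had 13.4, 13.3, 16.1, 8.74 and 15.0 CPM at 15 mg/kg and 8.21, 12.1, 11.9, 14.8 and 13.8 CPM at 30 mg/kg. No 7-HCG library reached the lowest control or cisplatin library, and control replicate 1 was high for its group. The log2 fold change of Brd9 against cisplatin was -1.31 ± 0.25 at 15 mg/kg and -1.44 ± 0.25 at 30 mg/kg (edgeR adjusted p = 0.000673 and 0.000814).

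Cisplatin alone moved few members, and all that were called rose. Against control, 8 of 74 (10.8%) were higher and none was lower, a share close to the 8.41% of all tested genes that were higher, with 5.01% lower. At an unadjusted p below 0.05 the edgeR test gave 14 higher and 2 lower, and DESeq2 called 10 higher and 2 lower. The median of the members was 0.04 on the log2 scale. Arid5a, which in mouse immune cells binds and stabilises the mRNA of the cytokine interleukin-6, rose most. It had 4.49, 3.59, 5.48, 4.05 and 3.10 CPM in control and 26.5, 11.5, 19.1, 34.3 and 116 CPM in cisplatin. Its values in the 7-HCG groups were 5.00, 33.8, 3.59, 21.8 and 17.5 CPM at 15 mg/kg and 4.50, 19.6, 25.6, 11.0 and 10.3 CPM at 30 mg/kg. All cisplatin libraries lay above all control libraries, with replicate 10 far above the rest, and the 7-HCG libraries ranged from control levels to cisplatin levels. The log2 fold change in cisplatin against control was 3.31 ± 0.67 (edgeR adjusted p = 0.00631), and 2.16 without replicates 9 and 10 (edgeR adjusted p = 0.0433). It was also the 1 member higher than control at both doses, with log2 fold changes of 1.98 ± 0.64 and 1.78 ± 0.64 (edgeR adjusted p = 0.0181 and 0.0379).

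Setd4, a methyltransferase with a transcript of 1826 bp, had 5.36, 2.77, 2.54, 2.69 and 2.46 CPM in control and 10.8, 6.10, 9.26, 11.1 and 20.9 CPM in cisplatin. In the 7-HCG groups it had 1.66, 8.87, 1.70, 2.53 and 2.51 CPM at 15 mg/kg and 1.07, 3.52, 5.93, 3.18 and 3.64 CPM at 30 mg/kg. The cisplatin libraries lay above all control libraries, and at 15 mg/kg replicate 2 alone reached the cisplatin range. Its log2 fold change was 1.87 ± 0.47 in cisplatin against control and -1.75 ± 0.47 at 15 mg/kg against cisplatin (edgeR adjusted p = 0.0148 and 0.00689). Smarcd3, a BAF subunit of muscle and heart development, rose from 5.42 ± 0.852 to 13.2 ± 4.58 CPM (SD, n = 5; log2 fold change 1.28 ± 0.23, edgeR adjusted p = 0.00276), and the control and cisplatin libraries did not overlap. Its row overlaps that of Chpf2 on the opposite strand, which held 4.94 times as many reads.

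Kmt2b had 56.2, 37.1, 49.7, 45.3 and 42.3 CPM in control and 80.1, 49.2, 63.9, 90.8 and 188 CPM in cisplatin. After 7-HCG it had 31.2, 28.2, 26.7, 30.6 and 35.6 CPM at 15 mg/kg and 25.9, 33.3, 34.2, 35.7 and 32.4 CPM at 30 mg/kg. All cisplatin libraries but replicate 3 lay above all control libraries, replicate 10 was the highest, and every 7-HCG library lay below every control library. Its log2 fold change was 1.03 ± 0.25 in cisplatin against control and -1.63 ± 0.26 at 15 mg/kg against cisplatin (edgeR adjusted p = 0.013 and 0.000216). Also called higher in cisplatin were Setd1a, a promoter methyltransferase of the COMPASS complexes, Kdm1a, the demethylase LSD1, Kdm6b and Setd6, which is known to methylate the NF-κB subunit RelA. Their log2 fold changes were 0.97 ± 0.26, 0.86 ± 0.25, 0.83 ± 0.22 and 0.67 ± 0.22 (edgeR adjusted p = 0.019, 0.0288, 0.0175 and 0.0448). Kdm1a overlaps Luzp1 on the opposite strand.

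Most of these rises rested on the cisplatin libraries with the high mitochondrial share. Without replicate 10 alone, 3 members were called, Arid5a, Smarcd3 and Kmt2b, and without replicates 9 and 10 only Arid5a and Smarcd3. The log2 fold changes were then 0.44 for Kmt2b, 0.46 for Kdm6b, 0.43 for Setd1a, 0.32 for Kdm1a, 0.27 for Setd6 and 1.42 for Setd4. Without control replicates 2 and 5 Smarcd3 alone was called. Of the 8 members raised in cisplatin, 5 (Kmt2b, Kdm6b, Setd1a, Setd4 and Smarcd3) were lower than cisplatin at both doses, and both contrasts share the cisplatin libraries. The same share among all genes raised in cisplatin was not counted, so no reversal is read from this count.

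**Figure D3:**
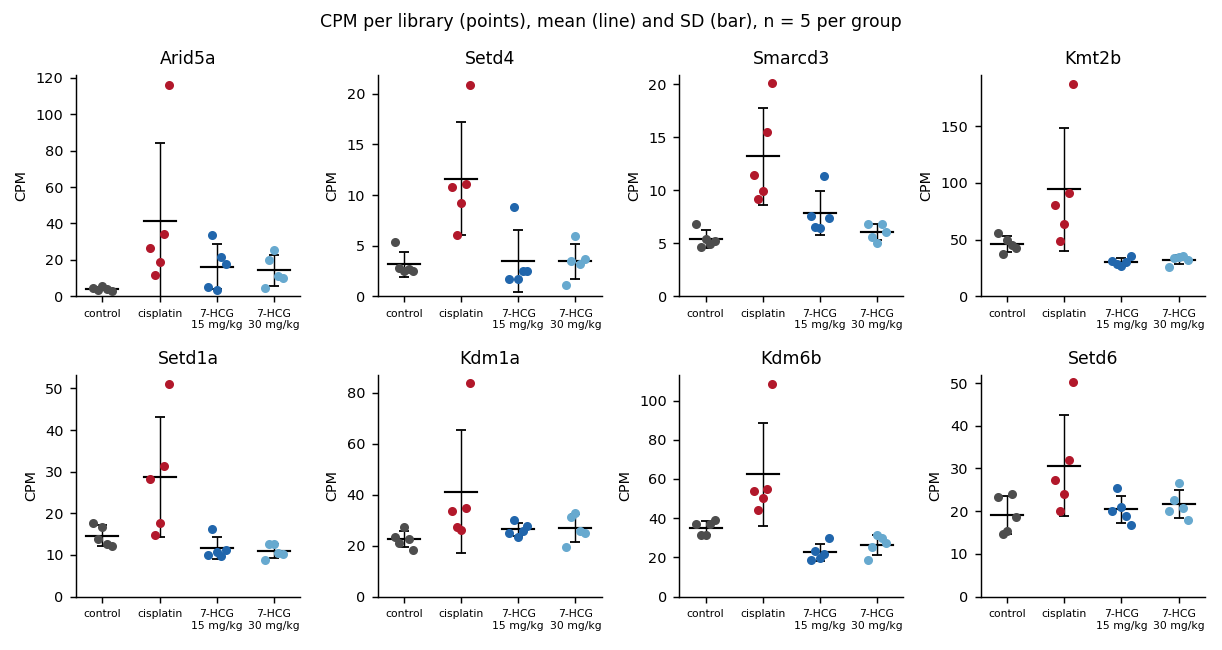
CPM (y axes, from 0) of the 8 members called higher in cisplatin than in control, per library and group, with means as lines and SD as bars (n = 5). Cisplatin replicate 10 is the highest library in all 8 panels, and the 7-HCG libraries of Kmt2b lie below all control libraries.

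No member was called between the doses of 7-HCG, and no gene was (0.0% of tested genes, edgeR's quasi-likelihood test). The lowest adjusted p among the members was 0.677, with 9 members and 1066 genes at an unadjusted p below 0.05, and DESeq2 called 0 members and 1 gene. The point values were higher at 30 than at 15 mg/kg for 61 of the 74 members, with a median of 0.21 on the log2 scale against 0.03 for all tested genes. The share of all tested genes above 0 was not counted. By transcript length, the median of all tested genes ran from -0.22 in the shortest of 5 classes to 0.20 in the longest. The longest class held 46 members. No member was called against cisplatin at 30 mg/kg without being called at 15 mg/kg.

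Transcript length moved with these differences. The members' transcripts had a median of 5864 bp, against 2922 bp for all tested genes, and 61 of the 73 tested members with a length were longer than that median. As many as 46 fell in the longest length class of tested genes, which begins at 4851 bp and is 1 of 5 classes of about equal gene number, and 1 in the shortest. The 3 longest were Kmt2d, Kmt2a and Kmt2c at 19823, 16461 and 14967 bp, and the 3 shortest Smarcb1, Setd6 and Smarcd3 at 1660, 1707 and 1735 bp. Across all tested genes, the median log2 fold change at 15 mg/kg against cisplatin went from 0.51 in the shortest length class to -0.46 in the longest, and against control from 0.55 to -0.61. The higher dose gave medians from 0.27 to -0.25 against cisplatin and from 0.33 to -0.37 against control. In cisplatin against control they went from 0.05 to -0.11.

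The trend could be followed in single libraries. The median log2 level of the longest length class minus that of the shortest, each relative to the gene's mean over all libraries, averaged 0.495 ± 0.223 over the control libraries and 0.319 ± 0.228 over those of cisplatin (SD, n = 5). It was -0.618 ± 0.431 with 15 mg/kg 7-HCG and -0.213 ± 0.279 with 30 mg/kg (SD, n = 5). The libraries at 15 mg/kg ran from -1.193 to -0.123 and those of control from 0.200 to 0.781, without overlap. The difference was -0.937 for 15 mg/kg against cisplatin and -0.532 for 30 mg/kg against cisplatin (2-sided exact permutation test, adjusted p over 6 comparisons = 0.0159 and 0.0238). Against control it was -1.11 and -0.71 (2-sided exact permutation test, adjusted p = 0.0159 for both), while cisplatin and control, and the doses, did not differ past the threshold (adjusted p = 0.286 and 0.143 by the same exact test). The smallest unadjusted p that 5 libraries against 5 allow is 0.00794. Without control replicates 2 and 5 the difference of 30 mg/kg from control was -0.593 (exact permutation test, adjusted p = 0.0536). When cisplatin replicates 9 and 10 were left out, the differences from cisplatin were -0.868 and -0.463 and no longer passed (exact permutation test, adjusted p = 0.0714 and 0.107).

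**Figure D4:**
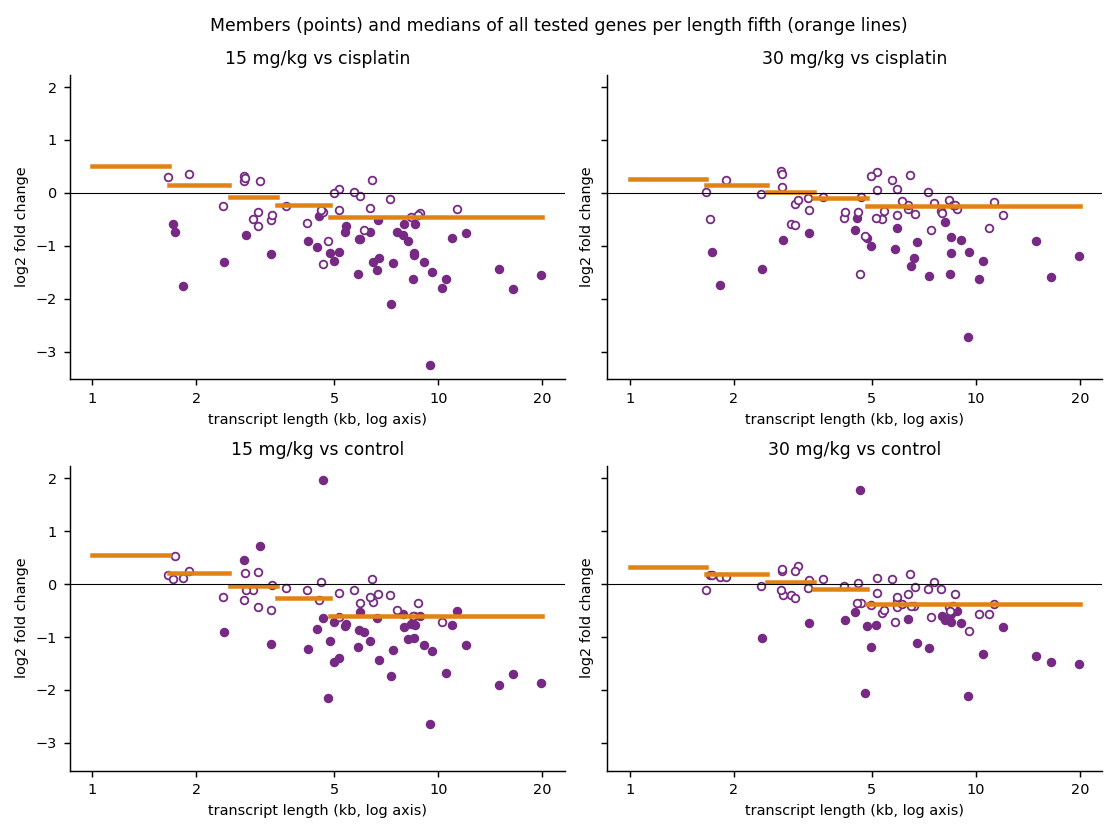
Log2 fold change (y axis) against transcript length (x axis, log scale in kb) for the 73 tested members with a length, filled where edgeR's adjusted p was below 0.05; orange lines are the medians of all tested genes in each length class, drawn between 1 and 20 kb. The orange lines step down with length in every panel, and 33 of the 46 members in the longest length class are filled at 15 mg/kg against cisplatin.

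Within the longest length class the members were lower more often than all genes of that class, as a description. The class runs from 4851 to 123179 bp and also holds the members, and lengths within it were not matched. At 15 mg/kg against cisplatin 33 of the 46 long members (71.7%) were called lower with a median of -0.86, against 33.7% of all genes in that class. With 30 mg/kg it was 20 of 46 (43.5%) with a median of -0.49, against 19.0%. Against control the counts were 33 and 18 of 46 (71.7% and 39.1%) with medians of -0.77 and -0.53, against 43.8% and 27.8%. With the length offsets described next, the medians of the 46 became -0.45 and -0.30 against cisplatin and -0.29 and -0.10 against control. Calls did not follow length in every member, as examples picked with their values known. The long transcripts of Smarca4, Kdm5c and Chd3 (7261 bp), a NuRD ATPase, were called in no comparison. The short transcripts of Brd9 and Setd4 were lower than cisplatin at both doses, but Setd4 had log2 fold changes of 0.12 and 0.13 against control. Among the 73 members, Spearman's rho between length and log2 fold change was -0.44 and -0.30 against cisplatin at 15 and 30 mg/kg and -0.59 and -0.57 against control, across genes that share the same libraries.

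To see what remained, the length trend of all genes was estimated in each library by a lowess curve and entered into the edgeR fit as an offset. With these offsets 31 of the 74 tested members were lower than cisplatin at 15 mg/kg and 1 was higher. Over all tested genes 16.2% were lower and 15.2% higher, and all 31 members had also been called lower without offsets. With 30 mg/kg, 24 were lower and 2 higher, against 13.1% of all genes lower and 14.7% higher, and 23 of the 24 were shared. Against control 21 of the 74 members were lower at 15 mg/kg, against 17.8% of all genes. At 30 mg/kg 14 of the 74 were lower, a share near the 13.4% of all genes. At each dose 3 members were higher, against 19.7% and 18.8% of all genes. The members' medians became -0.42 and -0.29 against cisplatin and -0.22 and -0.10 against control, and rho with length shrank to between -0.12 and -0.06. The offsets take away any change that runs with length, whatever its source, so the share of the members' differences that is due to length itself was not tested.

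The Kmt2 genes kept their direction against cisplatin with the offsets, whereas Kmt2b turned from -0.60 to 0.05 against control at 15 mg/kg and was called in neither fit. All 5 were still called lower at 15 mg/kg than in cisplatin and 4 at 30 mg/kg, and 4 were lower than control at each dose, with medians of -1.16, -1.12, -0.83 and -0.69. Kmt2d went from -1.54 ± 0.23 to -0.78 and Kmt2a from -1.82 ± 0.30 to -1.16 at 15 mg/kg against cisplatin. Brd9 went from -1.31 ± 0.25 to -1.41 and Setd4 from -1.75 ± 0.47 to -2.05. Other calls ended: Chd4, Chd9 and Kdm2a were no longer lower than cisplatin at 15 mg/kg, with log2 fold changes of -0.13, -0.20 and -0.11. Kdm5c became higher than cisplatin at both doses (log2 fold changes 0.63 and 0.56, edgeR adjusted p = 0.015 and 0.0287).

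**Figure D5:**
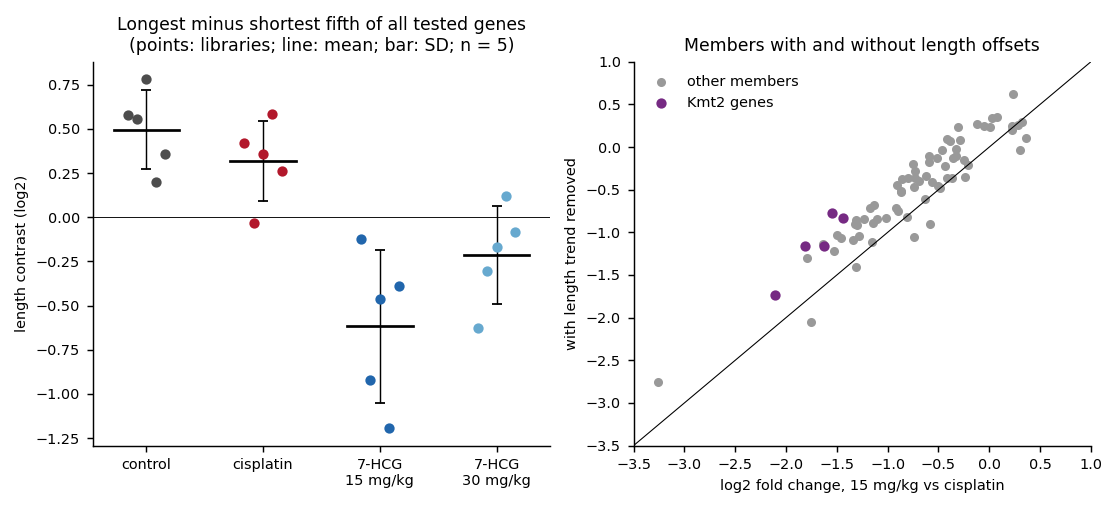
Left, the median log2 level of the longest minus the shortest length class of tested genes in each library (points), with group means (lines) and SD (bars, n = 5); right, log2 fold changes of the members at 15 mg/kg against cisplatin without (x axis) and with (y axis) length offsets, with the line of equal values. The 15 mg/kg libraries lie between -1.193 and -0.123 and all control libraries above 0, and with the offsets the 5 Kmt2 genes lie between -1.73 and -0.78.

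Beyond the members, 184 further chromatin genes with a median transcript of 3604 bp were tested, covering acetyltransferases, deacetylases, Polycomb proteins, further methyltransferases, partners of the COMPASS and SWI/SNF complexes, other remodelers and DNA methylation enzymes. Among them 70 were lower (38.0%) and 24 higher (13.0%) at 15 mg/kg than in cisplatin, against 18.6% and 18.9% of all tested genes. With 30 mg/kg 40 were lower (21.7%) and 17 higher (9.24%), against 13.2% and 14.7%. Against control 72 were lower (39.1%) and 33 higher (17.9%) at 15 mg/kg, against 22.2% and 23.0%. With 30 mg/kg 34 were lower, a share of 18.5% that is near the 15.6% of all tested genes, and 21 were higher (11.4%, against 18.6%). With the length offsets 49 were lower (26.6%) and 14 higher (7.61%) than cisplatin at 15 mg/kg, against 16.2% and 15.2% of all tested genes. At 30 mg/kg 31 were lower (16.85%) and 13 higher (7.065%), against 13.1% and 14.7%. Against control the offsets left 40 lower (21.7%) and 20 higher (10.9%) at 15 mg/kg, against 17.8% and 19.7%. At 30 mg/kg 13 were lower (7.065%) and 20 higher (10.9%), both below the 13.4% and 18.8% of all tested genes. The median of that comparison was 0.00. Kat6b, an acetyltransferase with a long transcript of 6977 bp, had a log2 fold change of -1.75 ± 0.29 at 15 mg/kg against cisplatin (edgeR adjusted p = 0.000256). Mtf2, a Polycomb-like protein, had -1.88 ± 0.27 (edgeR adjusted p = 0.000127), and -1.74 with the length offsets. In the other direction, Dpy30, a small core subunit of the complexes in which Kmt2 enzymes work (789 bp), was higher, with 1.06 ± 0.18 (edgeR adjusted p = 0.000293), and 0.46 with the offsets. Prmt5, an arginine methyltransferase (2691 bp), was higher too, with 0.80 ± 0.14 (edgeR adjusted p = 0.000427) and 0.76 with the offsets. Of the 12 tested DNA methylation genes 7 were lower than cisplatin at 15 mg/kg (58.3%). Of the 14 COMPASS partners 3 were lower and 3 higher (21.4% each), near the shares of all tested genes.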

How the data were processed

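Whole-kidney mRNA of 20 mice was measured. Per the file headers, the table deposited by the authors gives raw read counts by gene, beside their own comparisons, whose columns were not used here. Per the submitters' processing notes, FastQC, Trimmomatic, HISAT2, StringTie and DESeq2 were used with build mm10 (GRCm38). For the counting program, strand setting and annotation, nothing is given in the sources used here. The count columns of all 20 samples were used. Libraries held 10714532 to 49602115 counts, and the floor of 3 counts used below covers counting error only.

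Groups came from the labels. edgeR 4.0.16 (R 4.3.3) was run on the counts as deposited, with TMM scaling, filterByExpr and the robust quasi-likelihood test, on all 20 libraries in 1 fit of 14858 genes with 16 residual degrees of freedom. P values were adjusted by Benjamini-Hochberg over these genes, and log2 fold changes carry ± 1 standard error. Animals were separate, per the series' design text. DESeq2 1.42.0 was an alternative. Transcript lengths were those of GENCODE vM21 (principal, else longest transcript), found for 75 of 76 members. Length offsets came from lowess curves (span 0.3) of log2 CPM with a prior count of 2. Both were tested on simulated data.

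Members, lists and tests were chosen with earlier results of these data known. Named genes were, per comparison, up to 8 called members by smallest p, the 3 longest, the 3 shortest and a fixed set, and 25 resulted; 1 fixed gene is not reported here. Other genes in the text (Chd2, Chd3, Chd5, Chd9, Kdm2a, Kdm3a, Kdm5c, Kmt5a, Kmt5b, Setd3, Brd2, Brd8, Smarca1 and Arid4a) were chosen after their values were seen. Promoter sequences are from RefSeq (GRCm38.p6); those printed were chosen after values were seen. Members took the window nearest their row's start, and the background took the first window of each symbol. Alternatives were other scaling and filters, length and GC offsets, a replicate block and left-out libraries.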

Additional observations from a re-analysis of the deposited data

Results flagged for a closer look

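The CPM of 25 named genes and the length contrast were checked in each of 4 groups, 104 checks in all, and in 16 of them, all for genes, 1 library lay far from the other 4 of its group, measured as its gap to the nearest library over the range of the group, with a critical value of 0.71. Chance gives such a library in about 1 in 20 groups. In cisplatin, replicate 10 was far above the others for Arid5a (116 CPM, next 34.3), Kdm1a (83.8, next 34.8) and Kdm6b (108.6, next 54.8), and replicate 3 was far below for Kmt2a (26.2 CPM, next 51.1). In control, replicate 1 was far above for Brd9 (39.1 CPM), Chd8 (67.3 CPM) and Setd4 (5.36 CPM). At 15 mg/kg, replicate 5 was low for Chd6 (6.33 CPM) and Chd8 (24.6 CPM) and high for Smarcd3 (11.4 CPM). Replicate 2 of the same group was high for Setd1a (16.1 CPM) and Setd4 (8.87 CPM), and replicate 1 was low for Smarcb1 (46.7 CPM). At 30 mg/kg, replicate 1 was low for Chd4 (119.9 CPM), Chd8 (23.9 CPM) and Setd2 (12.9 CPM).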

How the results depend on the processing

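Of 66 called log2 fold changes of named genes, 19 kept direction and call in all 32 alternatives; over 2112 gene and alternative pairs, 1874 kept both, 235 lost the call and 3 changed sign. The changes of sign were all at 15 mg/kg against control: Chd8 at 0.0310 with length offsets and 0.0589 with length offsets and the replicate block, and Setd2 at 0.0229 with length and GC offsets. Of 84 uncalled values, 21 were called in some alternative and 56 changed sign.

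The number of members called in cisplatin against control, 8, became 1 with library totals, 3 with only the 2 groups compared, 2 without cisplatin replicates 9 and 10 and 1 without control replicates 2 and 5. With library totals the count became 10 and 1 for 15 and 30 mg/kg against cisplatin, and 23 and 10 against control. Against control it became 24 at 15 mg/kg with length offsets, 27 and 15 with length and GC offsets, and at 30 mg/kg 37 with DESeq2, 37 without cisplatin replicates 9 and 10 and 10 without control replicates 2 and 5. The cause was not tested, and apart from the length offsets the shares of all tested genes are not given for these alternatives. Leaving out each library in turn gave 3 to 12 members in cisplatin against control, 34 to 44 and 23 to 31 for the doses against cisplatin, 35 to 44 and 15 to 29 against control, and 0 to 0 between the doses.

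The difference in length contrast passed the threshold no longer for 30 mg/kg against cisplatin without a low-count filter (-0.21), for both doses against cisplatin without cisplatin replicates 9 and 10 (-0.87 and -0.46) and for 30 mg/kg against control without control replicates 2 and 5 (-0.59). Leaving out 1 library gave -0.25 to -0.09 for cisplatin against control, -1.06 to -0.79 and -0.62 to -0.43 for the doses against cisplatin, -1.24 to -0.97 and -0.79 to -0.60 against control, and 0.26 to 0.53 between doses.

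Replicate numbers did not pair the samples: libraries with the same number correlated at -0.309 to 0.234 over 15 pairs, and those with different numbers at -0.49 to 0.422. With the replicate number as a block 0 members were called in cisplatin against control, 16 and 2 for the doses against cisplatin; with length offsets and the block it was 0, 10, 2, 18 and 10 over cisplatin against control, the doses against cisplatin and the doses against control.

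Members near the low-count filter, such as Chd5 and Smarca1, are limited by depth, and 3 counts correspond to 0.0497 to 0.375 CPM. In whole tissue the makeup of cells was not measured, and 14 members overlap a row on the opposite strand.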
